A study of Homo sapiens with 12 samples.

Results

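The metalloproteinases and their tissue inhibitors were described in 4 stable lines derived from A549 cells, which come from a human adenocarcinoma of the lung. All genes were taken whose symbol is MMP, ADAM, ADAMTS or ADAMTSL followed by a number, or TIMP1 to TIMP4. This gave 74 of the 60623 genes in the count table, namely 24 MMP, 22 ADAM, 19 ADAMTS, 5 ADAMTSL and 4 TIMP genes, and 71 of them are annotated as protein coding. The lines were made by lentiviral infection and hygromycin selection. V carried the empty pLV-EF1a-IRES-Hygro vector, WT carried HA-tagged wild-type AHR, SA carried HA-AHR with S489A and SD carried HA-AHR with S489D. AHR is the aryl hydrocarbon receptor, a ligand-activated transcription factor. The study compared the lines to learn what phosphorylation of AHR by the kinase PLK1 at the serine changed in SA and SD does in these cells, with SA as the form that cannot be phosphorylated there and SD as its mimic. The vector drives AHR from the EF1a promoter on top of the cells' own AHR gene. Poly-A RNA was sequenced from 3 libraries per line, 12 in all, which the labels call biological replicates and which come from 1 line per construct. The p-values therefore measure the spread between libraries of a line, and what a construct did cannot be told apart from what else distinguished its line.

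Matrix metalloproteinases (MMPs) are zinc endopeptidases that cut collagens, other matrix proteins and proteins of the cell surface. Most are secreted as inactive precursors, and the membrane-type members stay anchored to the cell, where MMP14 activates the MMP2 precursor together with TIMP2. ADAMs are membrane proteins, some of which shed growth factors and receptors from the cell surface, while others have lost the catalytic site. ADAMTS enzymes are secreted and act on proteoglycans, procollagens and microfibrils, and ADAMTSL proteins resemble them but lack the protease part. TIMPs bind the active site of these enzymes. MMP2 and its relatives are known for their part in invasion of carcinomas through the basement membrane.

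The promoters of the changed genes are shown first, because the lines differ in a transcription factor. The RefSeq table of promoters (GRCh38.p14, from 250 bases before to 50 bases after the gene start) held 8 of the 11 genes that changed in at least 1 comparison, and MMP2, MMP16 and MMP17 were not among them. The windows were searched on both strands for GCGTG, the core of the AHR response element, and for TGAGTCA, the AP-1 site. Among the genes called in all 3 lines with AHR against V, GCGTG was present in 3 of the 4 windows of genes that rose (ADAM19, ADAMTSL4 and TIMP1, not ADAM12) and in 0 of the 3 windows of genes that fell (MMP7, MMP15 and MMP24). It was also present in the window of ADAMTS14, which passed the filter against V only through the SD libraries. It was present in 36.3% of all 27305 promoters of this length and in 14 of the 44 windows found for the genes of these families. TGAGTCA was present in MMP7 and in none of the other 7 windows, against 4.92% of all promoters. These letters are a description and do not show binding. The windows below belong to genes that changed in all 3 lines with AHR. The first 3 hold GCGTG, ADAM12 holds neither motif, and MMP7 holds the AP-1 letters. The capitals mark GCGTG or its reverse complement CACGC, and TGAGTCA in MMP7.
ADAM19: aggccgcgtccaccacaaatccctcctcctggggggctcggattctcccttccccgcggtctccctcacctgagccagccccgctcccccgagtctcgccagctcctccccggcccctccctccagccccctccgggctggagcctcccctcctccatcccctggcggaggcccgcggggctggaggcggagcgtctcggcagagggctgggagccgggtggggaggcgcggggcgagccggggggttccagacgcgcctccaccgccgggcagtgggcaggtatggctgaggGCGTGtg
ADAMTSL4: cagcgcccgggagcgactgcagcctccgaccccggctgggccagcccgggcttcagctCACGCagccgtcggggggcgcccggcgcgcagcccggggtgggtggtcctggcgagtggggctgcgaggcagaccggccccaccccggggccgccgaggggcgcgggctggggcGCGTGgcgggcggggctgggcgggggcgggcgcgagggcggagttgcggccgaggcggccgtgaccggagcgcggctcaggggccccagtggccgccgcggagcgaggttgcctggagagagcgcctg
TIMP1: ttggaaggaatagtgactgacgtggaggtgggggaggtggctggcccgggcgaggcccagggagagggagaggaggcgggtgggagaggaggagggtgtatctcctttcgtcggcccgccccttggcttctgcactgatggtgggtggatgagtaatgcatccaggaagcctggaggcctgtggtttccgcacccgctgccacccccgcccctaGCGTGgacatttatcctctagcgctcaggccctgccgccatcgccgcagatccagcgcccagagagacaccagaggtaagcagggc
ADAM12: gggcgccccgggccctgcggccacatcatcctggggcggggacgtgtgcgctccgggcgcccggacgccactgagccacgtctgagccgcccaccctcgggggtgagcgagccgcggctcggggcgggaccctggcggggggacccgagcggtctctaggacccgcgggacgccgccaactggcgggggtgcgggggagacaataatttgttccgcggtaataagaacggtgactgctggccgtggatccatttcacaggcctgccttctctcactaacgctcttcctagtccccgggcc
MMP7: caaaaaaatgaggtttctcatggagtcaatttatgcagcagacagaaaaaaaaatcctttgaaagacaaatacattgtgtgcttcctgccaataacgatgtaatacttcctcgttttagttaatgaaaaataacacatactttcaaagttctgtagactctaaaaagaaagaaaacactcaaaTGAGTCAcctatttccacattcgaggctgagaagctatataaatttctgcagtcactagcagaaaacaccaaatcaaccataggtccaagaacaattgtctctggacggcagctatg
The ADAM19 window lies on the minus strand at chr5:157575726-157576025, the ADAMTSL4 window on the plus strand at chr1:150549158-150549457, and the TIMP1 window on the plus strand at chrX:47582186-47582485. The ADAM12 window lies on the minus strand at chr10:126388428-126388727 and the MMP7 window on the minus strand at chr11:102530698-102530997. Positions are counted from the RefSeq gene start as +1, which is not the deposited gene start in every gene. GCGTG or its reverse complement began at +44 in ADAM19, at -192 and -78 in ADAMTSL4, and at -36 in TIMP1. The AP-1 letters of MMP7 began at -67. G and C made up 35.7% of the MMP7 window and between 65.0% and 82.3% of the other windows printed, beside a median of 58.3% over all promoters. In the windows of MMP15 and MMP24, which are not printed, the share was 75.3% and 80.0%.

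The depth was between 7844045 and 11765576 expected counts per library, so a gene with no count may be present at up to 0.255 to 0.382 CPM (3 counts, relative to library size), for counting error only. The transgene check gave AHR together with the overlapping gene ENSG00000283321 between 65.8 and 74.3 CPM in V, 450.4 and 480 in WT, 371 and 407 in SA and 290 and 305 in SD. By this sum, SD carried less AHR transcript than SA, and SA less than WT, without overlap of libraries. The part of these differences in the results was not tested. Of the epithelial markers, KRT8, KRT18 and KRT7 were at 1369 CPM or more in every library, although EPCAM was at 1.75 CPM or lower and KRT19 at 0.536 or lower. The summed epithelial markers were between 7620 and 8017 CPM in V and between 5767 and 6517 in the lines with AHR. Of 7 fibroblast markers, 5 were under 1 CPM in every library, DCN was at 0, and the sum lay between 10.9 and 15.5 CPM in V and between 7.12 and 11.9 in the other lines. The sum of 5 leukocyte markers was 33.0 to 41.0 CPM in V and 43.2 to 53.7 in the other lines, nearly all from CD68 and CD14, while PTPRC did not exceed 0.171 CPM and CD3E was at 0. The 4 endothelial markers summed to at most 0.316 CPM. The part of these marker differences in the results was not tested. SD replicates 1 and 3 differed more than any other pair of the same line, with a chi-square per gene of 6.43 against 2.45 to 4.57 in the other pairs.

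A549 cells used a limited set of the families. No count in any library was found for 18 genes (ADAM2, ADAM6, ADAM7, ADAM18, ADAM29, ADAM30, ADAMTS1, ADAMTS5, ADAMTS19, ADAMTS20, ADAMTSL2, MMP8, MMP10, MMP12, MMP20, MMP23A, MMP26 and MMP27), which allows up to 0.382 CPM in the shallowest library. Another 22 genes had counts but passed the filter in no comparison, and none of these exceeded 1.2 CPM in any library. The remaining 34 genes were tested in at least 1 of the 6 comparisons, and 32 of them in all 6. Of the 9 MMP genes within a stretch of 435 kb on chromosome 11 of GRCh38, between 102520508 and 102955732, 5 had no count, and MMP1, MMP3 and MMP13 had at most 2 counts in a library. MMP7, at one end of this cluster, was the only one with counts in all 12 libraries. None of the 3 interstitial collagenases was therefore tested. All 6 membrane-type MMPs were counted in every library. MMP9, the second gelatinase, was at 0, 1 or 2 counts in every library.

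Levels were compared between genes per kb of the MANE Select transcript. In V, TIMP1 was at 128, ADAM9 at 117 and TIMP2 at 83.5 CPM per kb, followed by ADAM15 at 40.2, ADAM10 at 21.3, MMP24 at 18.9, ADAM17 at 18.4 and MMP15 at 15.3. The first 3 thus lay far above MMP2 at 2.13 CPM per kb and MMP14 at 2.02. ADAM9, ADAM10, ADAM15 and ADAM17 are catalytic ADAMs, and of these ADAM10 and ADAM17 are the best known sheddases, which cleave NOTCH receptors and growth factor precursors. Among the secreted ADAMTS enzymes, ADAMTS10, which is known for its link to fibrillin microfibrils, was at 14.5 CPM per kb in V, ADAMTS15, a proteoglycanase, at 5.16 and ADAMTS7 at 3.87. On the scale of summed CPM, the 22 ADAM genes gave 1025 ± 34.3 in V and 1024 ± 17.4 in WT, with 1021 ± 11.2 in SA and 1072 ± 66.4 in SD (mean ± SD, n = 3 libraries each). The 24 MMP genes gave 239 ± 4.57 in V and 225 ± 5.81 in WT, with 230 ± 6.62 in SA and 242 ± 4.85 in SD. The 19 ADAMTS genes gave 150.4 ± 9.22, 137 ± 6.68, 149.8 ± 12.8 and 158 ± 9.75 CPM in V, WT, SA and SD, and the 5 ADAMTSL genes 18.5 ± 1.91, 23.7 ± 0.822, 23.4 ± 2.07 and 28.1 ± 4.10. The 4 TIMP genes gave 409 ± 18.5, 432 ± 6.06, 464 ± 6.06 and 465 ± 4.68 CPM in the same order, of which TIMP2 made up 72.7%.

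**Figure D1:**
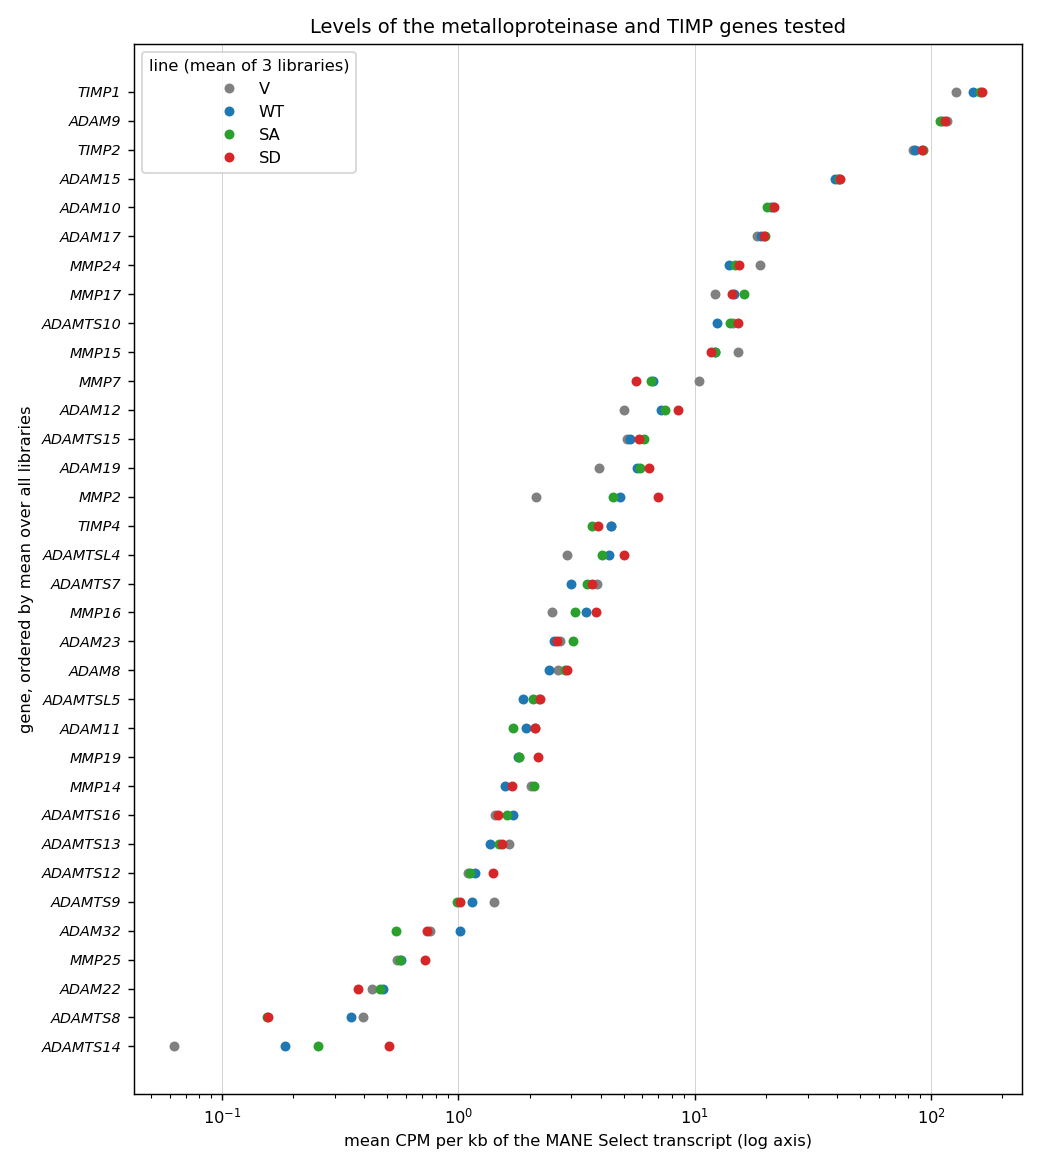
Mean CPM per kb of the MANE Select transcript (log axis) of the 34 genes tested in at least 1 comparison, with 1 point per line (mean of 3 libraries) and genes ordered by their mean over all libraries. TIMP1, ADAM9 and TIMP2 are at the top, and MMP2 moves from 2.13 in V to 6.98 in SD.

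Each line with AHR was compared with V first, which asks how the families differed where AHR was introduced. These 3 comparisons share the V libraries. The families were chosen with earlier results of these data known. The shares called, here and below, are therefore descriptions, and no excess over all genes is drawn from them. In WT, 6 genes rose and 3 fell of 33 tested, which is 18.2% and 9.09%, where 2.31% of all 14772 genes tested were called higher and 2.93% lower. In SA, 7 rose and 3 fell of 32 tested (21.9% and 9.38%), beside 3.88% higher and 3.29% lower among all genes. In SD, 7 rose and 3 fell of 33 tested (21.2% and 9.09%), beside 2.92% higher and 2.49% lower among all genes. One of the 7 is ADAMTS14, which entered that test through its counts in SD, and without it 6 of 32 rose (18.8%). Without WT replicate 3, the genes called in WT numbered 5. The calls are those of edgeR's quasi-likelihood test at an adjusted p under 0.05. The same 6 genes, namely MMP2, MMP16, ADAM12, ADAM19, ADAMTSL4 and TIMP1, rose in all 3 lines, and the same 3, namely MMP7, MMP15 and MMP24, fell in all 3. Over the genes of these families the median was -0.02 for WT, 0.03 for SA and 0.04 for SD on the log2 scale, and over all genes it was 0.00 each time. With 1 library left out, the median lay between -0.05 (WT replicate 1) and 0.02 (V replicate 1 or WT replicate 2) for WT and between -0.01 (V replicate 2) and 0.09 (V replicate 1) for SA, so that its sign was not stable. For SD it lay between 0.0096 (SD replicate 1) and 0.10 (V replicate 1), and it was 0.15 when every gene with at least 1 count was tested.

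**Figure D2:**
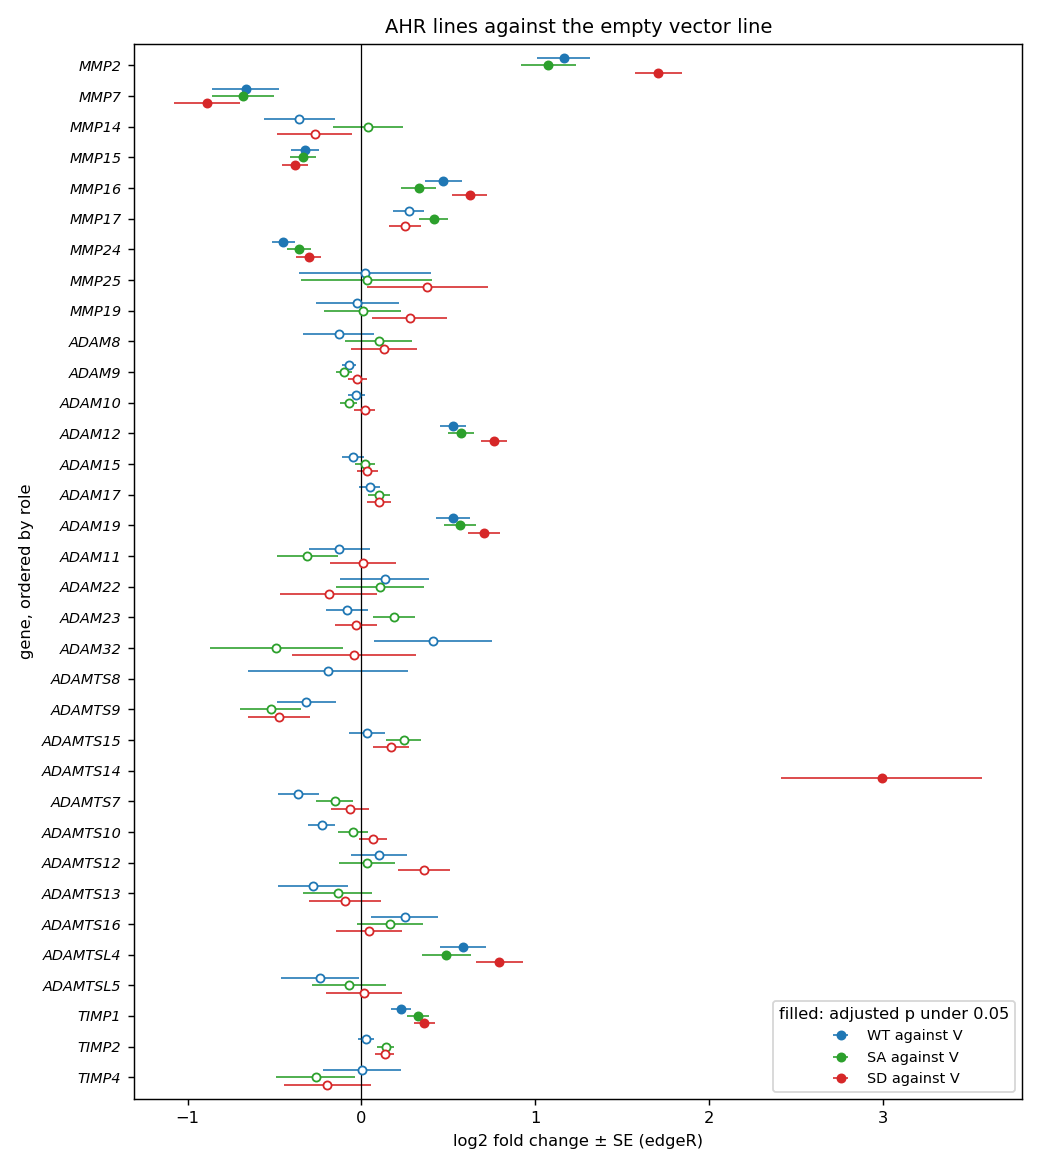
log2 fold change with its standard error from edgeR in WT, SA and SD against V, for the 34 genes tested in at least 1 comparison, ordered by role. Filled points have an adjusted p under 0.05. MMP2, MMP16, ADAM12, ADAM19, ADAMTSL4 and TIMP1 lie to the right of 0 in all 3 lines, and MMP7, MMP15 and MMP24 to the left.

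MMP2, the gelatinase that cuts type IV collagen of basement membranes, had the largest rise of the genes called in all 3 lines. MMP2 (ENSG00000087245) lies on the plus strand of chromosome 16 from 55389700 to 55506691 of GRCh38. These are deposited coordinates, which are used here for the span of each gene. It was at 7.51, 6.58 and 8.42 CPM in V, at 18.4, 15.01 and 17.4 in WT, at 17.7, 14.2 and 15.7 in SA and at 25.3, 23.6 and 24.7 in SD. All V libraries were the lowest, all SD libraries the highest, and the WT and SA libraries overlapped. Against V, the log2 fold change was 1.16 in WT (standard error 0.15, adjusted p = 6.23e-06, edgeR), 1.08 in SA (0.16, adjusted p = 3.28e-05) and 1.71 in SD (0.13, adjusted p = 1.98e-09), that is 2.24-, 2.11- and 3.27-fold.

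The levels of MMP2 were set against its inhibitors and its activator within each library, on the scale of CPM per kb. The ratio of MMP2 to TIMP2, which both inhibits MMP2 and takes part in its activation, was 0.0255 ± 0.00168 in V and 0.0566 ± 0.00626 in WT, with 0.0492 ± 0.00711 in SA and 0.0763 ± 0.00334 in SD (n = 3 libraries each). The ratio of MMP2 to TIMP1 was 0.0167 ± 0.00198, 0.0322 ± 0.00389, 0.0281 ± 0.00213 and 0.0425 ± 0.00144 in the same order. TIMP1 and TIMP2 thus exceeded MMP2 in every line. The ratio of MMP2 to MMP14, the membrane activator, was 1.08 ± 0.267 in V and 3.12 ± 0.618 in WT, with 2.25 ± 0.554 in SA and 4.40 ± 1.20 in SD. These ratios are of transcripts and are given without a test.

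The membrane-type MMPs changed in both directions. MMP16 (ENSG00000156103) lies on the minus strand of chromosome 8. MMP17 (ENSG00000198598) lies on the plus strand of chromosome 12 from 131828393 to 131851783. MMP16, which can activate the MMP2 precursor at the cell surface, was at 30.1, 23.1 and 32.7 CPM in V, 37.1, 37.6 and 44.8 in WT, 36.5, 35.8 and 36.0 in SA and 43.4, 46.1 and 42.8 in SD. Every library of the lines with AHR was above every V library. The log2 fold change against V was 0.47 in WT (standard error 0.11, adjusted p = 0.00542, edgeR), 0.33 in SA (0.10, adjusted p = 0.0419) and 0.62 in SD (0.10, adjusted p = 2.06e-04). The call in SA was lost when V replicate 1, V replicate 2 or any single SA library was left out, with DESeq2 (adjusted p = 0.0996) and in a single fit of all 12 libraries (adjusted p = 0.0501), and the call in WT without V replicate 2 or WT replicate 3 (highest adjusted p = 0.0712). MMP17, a membrane-type MMP held by a lipid anchor, was at 29.6, 31.0 and 27.0 CPM in V and at 37.9, 40.0 and 38.9 in SA. Its rise in SA was 0.42 on the log2 scale (0.09, adjusted p = 0.00211). Its libraries were at 34.4, 36.8 and 34.5 CPM in WT and 35.3, 33.9 and 34.8 in SD, also above V, with log2 fold changes of 0.27 (adjusted p = 0.0760) and 0.25 (adjusted p = 0.117) that missed the threshold.

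MMP15 and MMP24, both membrane-type MMPs with a transmembrane anchor, fell in all 3 lines with AHR. MMP15 (ENSG00000102996) lies on the plus strand of chromosome 16 from 58025754 to 58046901. MMP24 (ENSG00000125966) lies on the plus strand of chromosome 20 from 35226690 to 35276998. MMP15 was at 61.2, 59.4 and 65.5 CPM in V, 53.5, 51.8 and 43.4 in WT, 52.5, 46.1 and 49.2 in SA and 49.2, 43.7 and 49.4 in SD. V was above all other libraries. The log2 fold change was -0.33 in WT (standard error 0.08, adjusted p = 0.0116, edgeR), -0.34 in SA (0.07, adjusted p = 0.00441) and -0.38 in SD (0.08, adjusted p = 0.00225), and the call in WT was lost without V replicate 3 or WT replicate 3 (highest adjusted p = 0.133). MMP24 was at 86.6, 85.2 and 77.0 CPM in V, 61.2, 58.4 and 63.0 in WT, 65.3, 61.8 and 67.2 in SA and 63.3, 66.3 and 71.7 in SD. Again no library of the other lines reached V. The log2 fold change was -0.45 in WT (0.07, adjusted p = 5.08e-05), -0.36 in SA (0.07, adjusted p = 0.00101) and -0.30 in SD (0.07, adjusted p = 0.00915), and the call in SD was lost without V replicate 1, V replicate 2 or SD replicate 2 (highest adjusted p = 0.0759). MMP24OS lies on the opposite strand and covers 18.4% of the exonic bases of MMP24. Whether the counting used strand is not given in the sources used here, so reads of the pair may not be told apart. MMP24OS was at 61.7 ± 4.76 CPM in V and 55.5 ± 3.97 in WT, and its log2 fold changes against V were -0.15, -0.12 and -0.13 in WT, SA and SD, with adjusted p of 0.326, 0.449 and 0.408 (edgeR).

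MMP14 was a low member of this group. It was at 7.51, 8.38 and 6.52 CPM in V, 5.34, 6.49 and 5.57 in WT, 9.32, 8.03 and 5.74 in SA and 8.31, 5.68 and 4.63 in SD. The lines overlapped, and its log2 fold changes against V of -0.36 in WT, 0.04 in SA and -0.27 in SD had standard errors of 0.20, 0.20 and 0.22 (adjusted p = 0.385 or more, edgeR).

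MMP7 (ENSG00000137673) lies on the minus strand of chromosome 11 from 102520508 to 102530750. This gene, which encodes matrilysin and whose product cuts E-cadherin and syndecan, was at 11.1, 14.6 and 9.36 CPM in V, 9.53, 6.23 and 6.68 in WT, 7.41, 7.77 and 6.71 in SA and 6.81, 6.86 and 5.34 in SD. WT replicate 1 was above the lowest V library, and all SA and SD libraries were below V. The log2 fold change was -0.67 in WT (standard error 0.19, adjusted p = 0.0379, edgeR), -0.68 in SA (0.18, adjusted p = 0.0179) and -0.89 in SD (0.19, adjusted p = 0.00380). The call in WT was lost without V replicate 1, V replicate 2, WT replicate 2 or WT replicate 3 and with DESeq2 (adjusted p = 0.0740), in SA without V replicate 2 or SA replicate 3, and in SD without V replicate 2, where the adjusted p was 0.0560. V replicate 2 was the highest library for this gene.

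ADAM12 and ADAM19, catalytic ADAMs of the same subgroup that is known from muscle, heart and tumour tissue, rose in all 3 lines. ADAM12 (ENSG00000148848) lies on the minus strand of chromosome 10 from 126012381 to 126388455. ADAM19 (ENSG00000135074) lies on the minus strand of chromosome 5 from 157395534 to 157575775. ADAM12 was at 40.0, 38.4 and 41.2 CPM in V, 55.6, 60.6 and 55.9 in WT, 59.0, 57.1 and 61.8 in SA and 70.6, 67.3 and 65.3 in SD. V was lowest and SD highest without overlap, and WT and SA overlapped. The log2 fold change against V was 0.53 in WT (standard error 0.08, adjusted p = 2.62e-05, edgeR), 0.57 in SA (0.07, adjusted p = 6.47e-06) and 0.77 in SD (0.08, adjusted p = 1.06e-07). ADAM19 was at 25.4, 22.9 and 28.2 CPM in V, 37.2, 34.1 and 39.5 in WT, 36.7, 37.8 and 39.0 in SA and 41.9, 41.0 and 41.7 in SD. The order of the lines was that of ADAM12. Its log2 fold change was 0.53 in WT (0.10, adjusted p = 6.09e-04), 0.57 in SA (0.09, adjusted p = 1.16e-04) and 0.71 in SD (0.09, adjusted p = 9.07e-06). All calls of both genes against V held in every alternative, with an adjusted p of at most 0.0102.

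The 4 abundant ADAMs did not pass the test in any comparison. ADAM9 was between 440.3 and 503 CPM in all libraries, ADAM10 between 220.3 and 267, ADAM15 between 105 and 128 and ADAM17 between 78.7 and 94.5. Their log2 fold changes against V lay between -0.10 and 0.10, with standard errors of 0.04 to 0.07. For ADAM10, the highest library was SD replicate 1 at 267 CPM, where the other SD libraries were at 228. For ADAM17, 10.3% of its exonic bases overlap IAH1 on the opposite strand.

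ADAMTSL4 (ENSG00000143382) lies on the plus strand of chromosome 1 from 150549369 to 150560937. It encodes a secreted protein of microfibrils and was at 13.9, 11.7 and 10.8 CPM in V, 17.7, 19.3 and 17.6 in WT, 18.8, 14.3 and 18.2 in SA and 21.5, 23.6 and 18.2 in SD. Every library with AHR was above V. The log2 fold change was 0.59 in WT (standard error 0.13, adjusted p = 0.00577, edgeR), 0.49 in SA (0.14, adjusted p = 0.0331) and 0.79 in SD (0.14, adjusted p = 3.80e-04). In SA the call was lost with DESeq2 and on leaving out V replicate 2 or 3 or SA replicate 1 or 3 (DESeq2 adjusted p = 0.0687). ADAMTSL4-AS1 covers 11.4% of its exonic bases on the opposite strand and was at 2.41 ± 0.276 CPM in V and 3.24 ± 0.355 in SD, with an adjusted p of 0.531 (edgeR).

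ADAMTS14, an enzyme that trims the amino end of procollagens, had few reads. ADAMTS14 (ENSG00000138316) lies on the plus strand of chromosome 10 from 70672506 to 70762441. Its counts were 4, 6 and 0 in V, 6, 11 and 12 in WT, 18, 18 and 10 in SA and 33, 12 and 44 in SD. SD replicate 2 overlapped WT and SA, and all SD libraries were above V. In SD against V the log2 fold change was 2.99 (standard error 0.58, adjusted p = 0.00145, edgeR). The gene passed the filter there through the SD libraries, and it was not tested in WT or SA against V. When every gene with at least 1 count was tested, its log2 fold change was 1.98 in SA (0.63, adjusted p = 0.0411) and 1.52 in WT (0.72, adjusted p = 0.347, edgeR), so that it passed in SA as well. In the single fit of all 12 libraries it did not pass in SA (adjusted p = 0.0669). The other procollagen enzymes, ADAMTS2 and ADAMTS3, had at most 5 and 3 counts in a library. None of the other secreted ADAMTS genes passed the main test against V. With 1 library left out, ADAMTS10 passed in WT without V replicate 3 and ADAMTS7 in WT without WT replicate 2. ADAMTS9, which is outside the rule for named genes, passed in SA without V replicate 2. ADAMTS10 was at 61.6 ± 6.18 CPM in V and 52.7 ± 3.47 in WT, with 59.6 ± 8.02 in SA and 64.5 ± 6.06 in SD. ADAMTS15 was at 31.0 ± 4.35, 31.8 ± 2.71, 36.8 ± 4.40 and 34.8 ± 3.43 CPM, and ADAMTS7 at 21.4 ± 0.726, 16.5 ± 2.09, 19.2 ± 0.990 and 20.4 ± 1.57 CPM, in the same order of lines (n = 3 libraries each). In WT against V, ADAMTS7 had a log2 fold change of -0.36 (adjusted p = 0.0702) and ADAMTS10 one of -0.23 (adjusted p = 0.0988, edgeR).

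TIMP1 (ENSG00000102265) lies on the plus strand of chromosome X from 47582408 to 47586789. It encodes a broad inhibitor of MMPs and was at 95.3, 99.4 and 100.5 CPM in V, 111, 114 and 121 in WT, 127, 114 and 129 in SA and 127, 126 and 125 in SD. Every library with AHR was above V. The log2 fold change was 0.23 in WT (standard error 0.06, adjusted p = 0.0130, edgeR), 0.33 in SA (0.06, adjusted p = 7.80e-04) and 0.36 in SD (0.06, adjusted p = 2.09e-04), that is 1.17-, 1.25- and 1.29-fold. The call in WT was lost without V replicate 1 or WT replicate 3 (highest adjusted p = 0.108). TIMP2 was at 305 ± 17.6 CPM in V and 311 ± 2.44 in WT, with 336 ± 11.02 in SA and 334 ± 5.56 in SD, and its log2 fold changes against V of 0.03, 0.14 and 0.13 missed the threshold (adjusted p = 0.831, 0.0973 and 0.174, edgeR). TIMP2 was called in SA against V when SA replicate 1 was left out. TIMP4 was between 3.65 and 6.54 CPM in all libraries with no call. TIMP3, the inhibitor that binds to the matrix, was near the limit of a count of 0 in every line. Its counts were 0 in every V library, 2, 0 and 4 in WT, 1, 2 and 2 in SA and 3, 0 and 4 in SD.

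**Figure D3:**
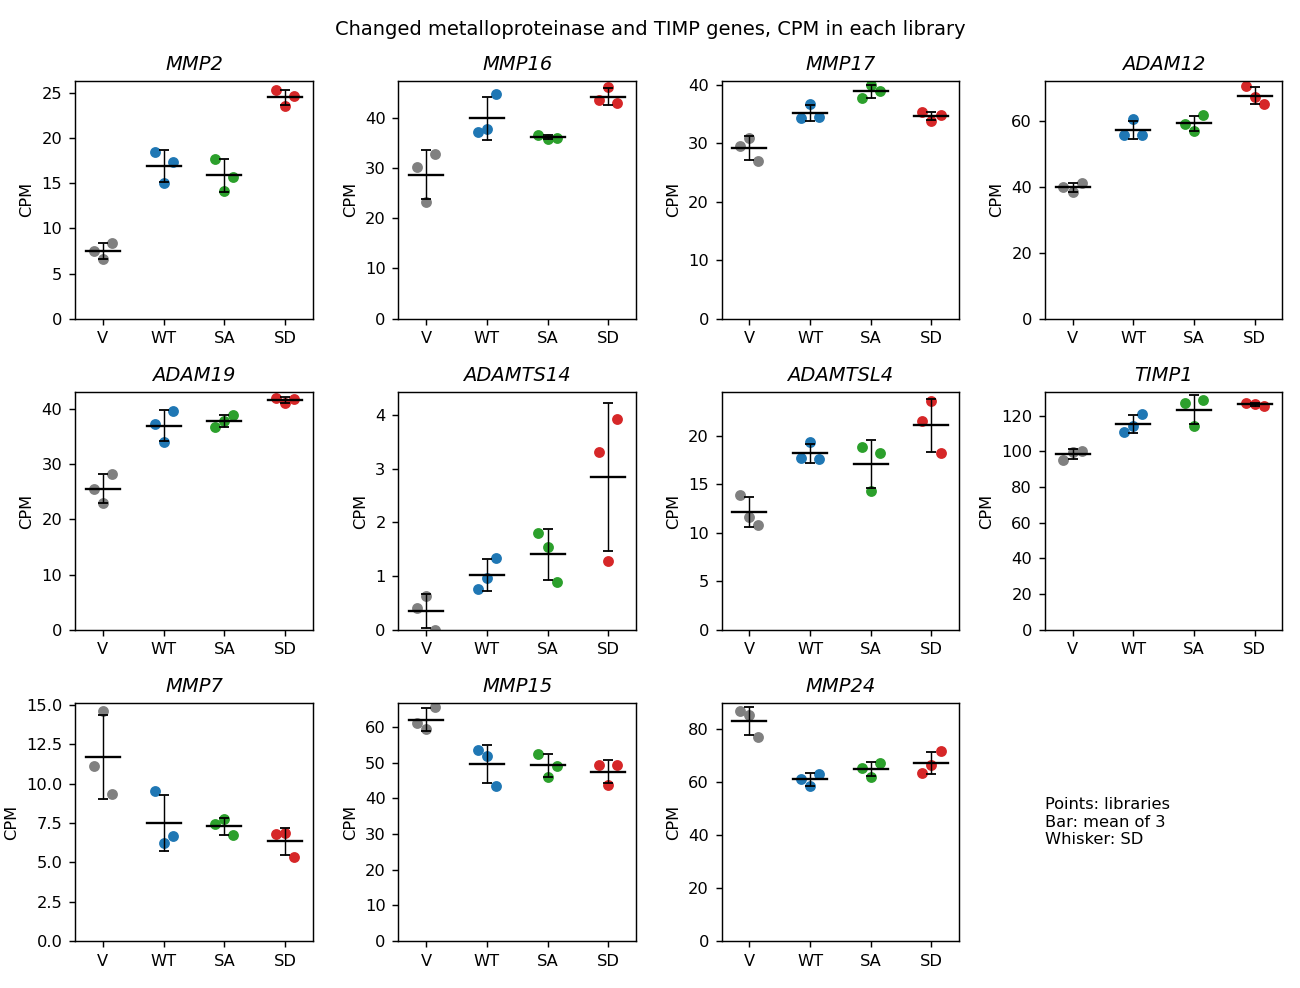
CPM in each library (points), with the mean (bar) and standard deviation (whisker) of 3 libraries per line, for the 11 genes that changed in at least 1 comparison, each on its own axis from 0. MMP2, ADAM12 and ADAM19 have V lowest and SD highest without overlap, while MMP7, MMP15 and MMP24 have V highest.

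The lines with AHR were then compared with each other, which asks for differences that go with the form of AHR carried. In SD against WT, 1 of 33 tested genes rose (3.03%) and 0 fell, where 0.513% of all 14828 genes were called higher and 0.196% lower. In SD against SA, again 1 of 33 rose and 0 fell, beside 0.16% of all 15030 genes higher and 0.0599% lower. The gene was MMP2 in both, and both comparisons share the SD libraries. In WT against SA no gene of 33 passed the edgeR test, beside 0.0201% of all 14942 genes higher and 0.0602% lower in WT. At an unadjusted p under 0.05 there were 5 of the 33 (15.2%), beside 7.31% of all genes, and DESeq2 called 0 of the 5 members to which it gave an adjusted p.

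From the libraries given above, the excess of MMP2 in SD over WT was 0.54 on the log2 scale (standard error 0.11, adjusted p = 0.0215, edgeR), or 1.46-fold, and that over SA was 0.63 (0.11, adjusted p = 0.0153), or 1.55-fold. For WT over SA it was 0.09 (0.13, adjusted p = 0.911). The call against WT did not hold in 4 of the 6 fits that left out 1 library (SD replicate 1, SD replicate 2, WT replicate 2 and WT replicate 3), where the adjusted p was between 0.0535 and 0.122. The call against SA did not hold without SA replicate 2 (adjusted p = 0.163) or SA replicate 3 (adjusted p = 0.0682). The log2 fold change stayed between 0.46 and 0.61 against WT and between 0.55 and 0.72 against SA in all alternatives. MMP2 shares 3.70% of its exonic bases with the gene ENSG00000279030, which had no count.

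In SD against WT the log2 fold change was positive for 25 of the 33 tested genes, MMP2 included (75.8%, beside 49.8% of all genes), with a median of 0.13 (all genes 0.00). It was positive for 24 of 32 without MMP2, and again for 24 of 32 without ADAMTS14. With 1 library left out the median lay between 0.09 (SD replicate 1, with 19 genes positive) and 0.16 (WT replicate 3). In SD against SA the log2 fold change was positive for 23 of 33 (69.7%, beside 50.2% of all genes), with a median of 0.06. With 1 library left out this median lay between 0.058 (SA replicate 2) and 0.11 (SD replicate 3), and without SA replicate 3 there were 20 positive genes. The log2 fold change was positive for 22 of 32 without MMP2, and again for 22 of 32 without ADAMTS14. In WT against SA the log2 fold change was positive for 14 of 33 (42.4%, beside 49.6%), with a median of -0.04. That median lay between -0.07 (WT replicate 1) and -0.0029 (WT replicate 2) with 1 library left out. These are descriptions without a test. Of the 32 genes tested in all comparisons, 15 had their highest mean CPM in SD, 8 in V, 6 in SA and 3 in WT. The lowest mean was in V for 13, in WT for 10, in SA for 6 and in SD for 3. These orders were not counted over all genes, so no lean of the families towards a line is read from them.

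At an unadjusted p under 0.05 there were 6 of the 33 genes between SD and WT and again 6 between SD and SA (18.2% each), beside 10.6% and 8.52% of all genes. Besides MMP2, unadjusted p-values under 0.05 between SD and WT were those of ADAMTS10 (log2 fold change 0.29, adjusted p = 0.104), ADAMTS14 (1.47, adjusted p = 0.137), ADAM12 (0.24, adjusted p = 0.160), ADAMTS7 (0.30, adjusted p = 0.369) and TIMP1 (0.13, adjusted p = 0.418, all edgeR). All were higher in SD. ADAMTS14 had 6, 11 and 12 counts in WT and 33, 12 and 44 in SD. It passed the filter for SD against WT mainly through the SD libraries, so nothing is drawn from its direction there. When every gene with at least 1 count was tested, ADAMTS10 and ADAMTS14 passed as well, and 3 genes were called. ADAMTS10 also passed without SD replicate 3. For ADAM12 no SD library overlapped WT or SA, and its log2 fold change against SA was 0.19 (standard error 0.07, adjusted p = 0.425). In SD against SA the others with an unadjusted p under 0.05 were MMP16 (0.29, adjusted p = 0.191), ADAM12, ADAMTS14 (1.03, adjusted p = 0.483), ADAMTSL4 (0.30, adjusted p = 0.537) and ADAMTS12 (0.33, adjusted p = 0.537), the last of which is outside the rule for named genes and was named after its value was seen. In WT against SA they were ADAM32 (0.90), TIMP2 (-0.11), ADAM23 (-0.27), ADAMTS15 (-0.21) and ADAMTS10 (-0.18), with adjusted p of 0.613 or more, and ADAM32 and ADAM23 were likewise named after their values were seen.

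**Figure D4:**
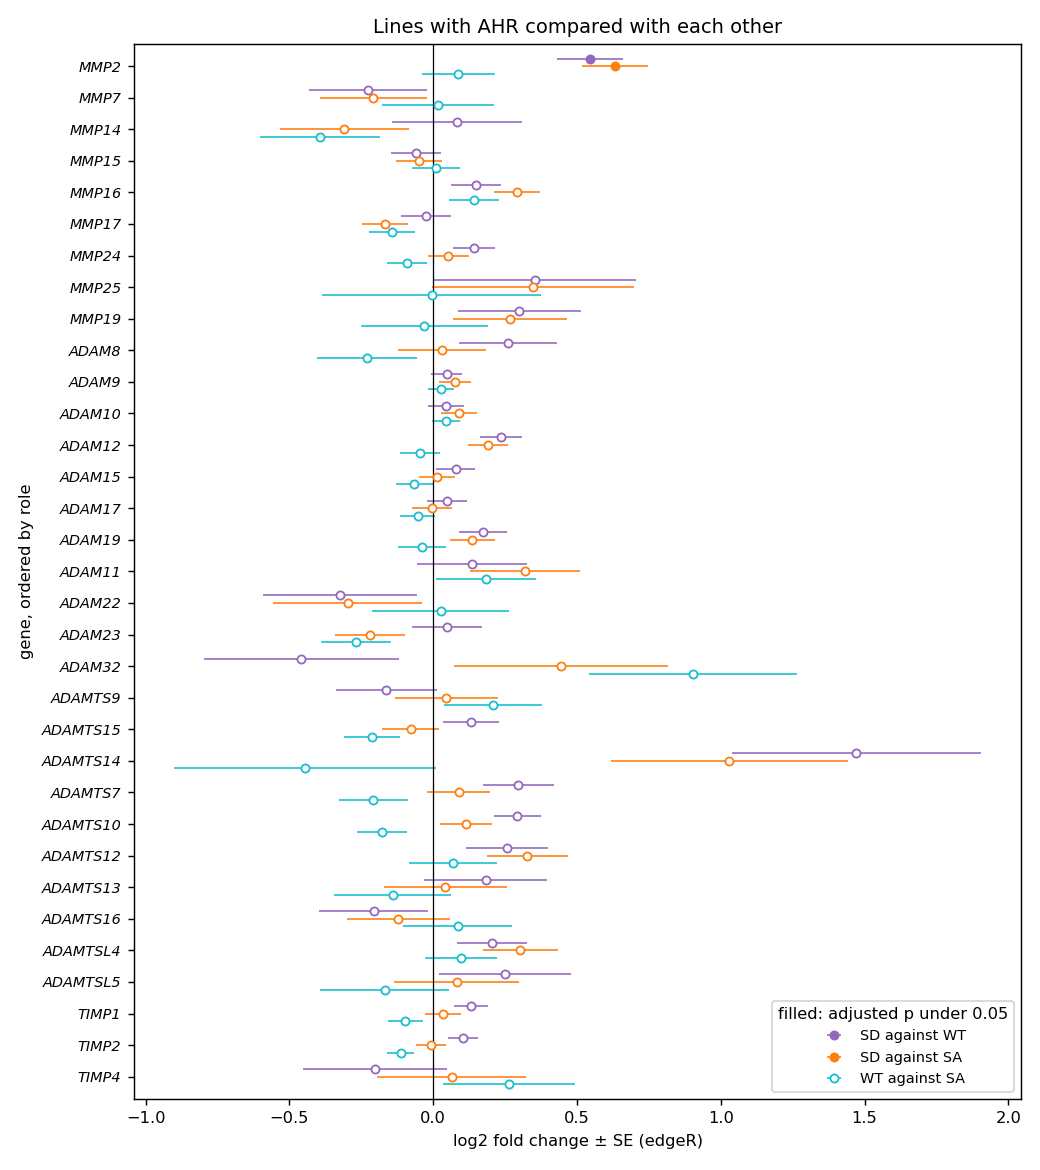
log2 fold change with its standard error from edgeR in SD against WT, SD against SA and WT against SA for the genes of these families that were tested, ordered by role. MMP2 has the only filled points (adjusted p under 0.05), at 0.54 and 0.63, while ADAMTS14 lies farther from 0 with standard errors of 0.41 to 0.45.

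Other genes of the pathway were taken as lists, and the shares of all genes called in each comparison are given above. The lists were chosen with earlier results of these data known. Their counts are therefore descriptions, and no excess over those shares is drawn from them. Of 17 activators and inhibitors outside the families, 10 were tested. PLAU, the urokinase that generates plasmin, rose in WT (log2 fold change 0.29, adjusted p = 3.74e-04, edgeR) and in SA (0.32, adjusted p = 1.87e-04) against V, and was at 125 ± 1.15 CPM in V and 153 ± 3.62 in WT, with 156 ± 4.51 in SA and 129 ± 7.89 in SD. TFPI2, an inhibitor of plasmin and some MMPs, fell in SA (-0.32, adjusted p = 0.00596) and SD (-0.31, adjusted p = 0.0152). None of the 10 was called between the lines with AHR. All 9 partners of ADAM10 and ADAM17 were tested, and the only call was RHBDF2, which guides ADAM17 to the cell surface and fell in WT (-0.23, adjusted p = 0.0140) and SA (-0.21, adjusted p = 0.0379) against V.

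Of 24 membrane proteins known to be shed, 7 rose and 2 fell of 23 tested in WT against V, 9 rose and 2 fell of 23 in SA, and 5 rose and 1 fell of 24 in SD. AXL, a receptor tyrosine kinase, rose in WT (log2 fold change 0.66, adjusted p = 3.68e-11, edgeR), SA (0.65, adjusted p = 1.11e-10) and SD (0.41, adjusted p = 6.41e-06), and was lower in SD than in WT (-0.25, adjusted p = 0.0269). CDH1, the epithelial cadherin, fell in all 3, with log2 fold changes of -0.60, -0.60 and -0.43. EREG, an EGF receptor ligand, rose by 0.49, 0.38 and 0.47, and CD44, the hyaluronan receptor, by 0.28, 0.30 and 0.37. NOTCH3 was the other gene called in SD against WT, where it was higher in SD (0.35, adjusted p = 0.0280), and it was lower in WT and SA than in V (-0.45 and -0.29); it was named after its values were seen. No gene of this list was called in SD against SA or in WT against SA.

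Of 16 substrates and partners of ADAMTS enzymes, 9 were tested. Against V, 3 fell in WT, 4 fell in SA, and 1 rose and 1 fell in SD. The gene that rose in SD was FBN1, another fibrillin (log2 fold change 0.59, adjusted p = 1.47e-05, edgeR). FBN2, a fibrillin, was at 62.5 ± 3.26 CPM in V and 37.9 ± 4.12 in WT, with 36.9 ± 0.539 in SA and 53.8 ± 6.11 in SD, with log2 fold changes of -0.72 in WT (adjusted p = 6.62e-07, edgeR) and -0.76 in SA (adjusted p = 7.80e-08) against V. LTBP1, which holds latent TGF-beta in microfibrils, fell in WT (-0.46, adjusted p = 0.00131), SA (-0.46, adjusted p = 8.95e-04) and SD (-0.37, adjusted p = 0.0123). COL1A1, a chain of type I collagen, fell in WT (-0.79, adjusted p = 0.00649) and SA (-0.60, adjusted p = 0.0278). When SD was set against WT or SA, the same 3 of the 9 rose (FBN1, FBN2 and VCAN, the last named after its values were seen) and none fell. FBN2 was higher in SD than in WT by 0.50 (adjusted p = 0.00834) and than in SA by 0.54 (adjusted p = 0.00557), and FBN1 by 0.52 in both (adjusted p = 5.69e-04 and 0.00323). None of this list was called between WT and SA.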

How the data were processed

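Reads had been cleaned by the authors with Trimmomatic 0.39 and assigned to GRCh38 transcripts by RSEM, whose expected counts per gene were deposited without normalization. RSEM shares ambiguous reads among genes, and of the members only ADAM15 and ADAMTS7 had values that were not whole. A second deposited table holds the authors' edgeR fold changes, p-values and q-values and was not used. Kit strandedness is not given in the sources used here.

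Expected counts were rounded and tested in R 4.3.3 with edgeR 4.0.16 (quasi-likelihood test, two-sided) for each pair of lines on its own 6 libraries, after filterByExpr (minimum count 10, minimum total 15) and TMM normalization. P-values were adjusted by Benjamini and Hochberg over all genes tested, at a threshold of 0.05. Standard errors were derived from the F statistics. CPM use TMM factors of all 12 libraries. CPM per kb use the MANE Select transcripts of GENCODE v44, in which 63 of the 74 members have the deposited coordinates. The tests were checked on simulated counts. No copies were found among the libraries of a line.

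Named members are those called in a comparison, all TIMPs, MMP2, MMP9, MMP14, ADAM10, ADAM17, the 5 remaining members with the highest mean CPM and those without a count. Of each list of other pathway genes at most 4 called genes are named, smallest adjusted p first, with NOTCH3 and VCAN added after their values were seen. One called gene of these lists is not reported here. ADAMs were to be divided by their protein sequence and were divided by their known catalytic activity, since no protein table was used here. Members and lists were chosen with earlier results of these data known. Replicate numbers were not taken to pair the libraries, as the correlations of deviations were small (between -0.04 and 0.11). Those between the lines with AHR were all above 0, at 0.017 to 0.055, so a weak shared replicate effect is not excluded. As alternatives, the filter was set to 1 count in all or to 10 counts per library, size factors and the test were taken from DESeq2 1.42.0, a single fit held the 12 libraries, replicate numbers entered as a block, and single libraries were left out. Figures were drawn with matplotlib 3.10.9.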

Additional observations from a re-analysis of the deposited data

How the results depend on the processing

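Of the 31 calls of single genes, 20 held in every alternative that tested them, 11 were lost in at least 1, and none reversed in direction. Among the 20, ADAMTS14 in SD against V was not tested when 10 counts were required in every library. The number of members called in SD against WT was 1, and it was 3 when every gene with at least 1 count was tested and 0 with DESeq2, where MMP2 had an unadjusted p of 1.31e-04 but no adjusted p, since only 14 of the 33 members received one. With 1 library left out it was between 0 and 2 in SD against WT, between 0 and 1 in SD against SA, 0 in WT against SA, between 5 and 9 in WT against V, between 7 and 9 in SA against V and between 8 and 10 in SD against V. The replicate block was fitted although the numbers were not taken to pair the libraries. It left the members called at 1, 1 and 0 between the lines with AHR and gave 7 in WT, 10 in SA and 10 in SD against V. It lost MMP15 and MMP7 in WT against V (adjusted p = 0.0550 and 0.0926). Over all genes it gave 245 calls for SD and WT in place of 105, 165 for SD and SA in place of 33, and 507 for WT and V in place of 774.

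The limits are those of 3 libraries from 1 line per construct, so that construct, AHR level and other differences between the lines cannot be told apart. Members under about 1 CPM were at or near the limit of a count of 0, and 40 of 74 were not tested. Of the tested members, MMP19, MMP24, MMP25, ADAM17, ADAMTSL4 and TIMP4 share over 10% of their exonic bases with a gene on the other strand. Transcript levels say nothing of secretion, activation or protease activity.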
